A study of Solanum lycopersicum with 40 samples.

Results

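ETR2, ETR4 and ETR5 are members of the ethylene receptor family of tomato. They were taken as every probe set of the array whose annotated gene symbol or synonym is ETR2, ETR4 or ETR5, which gave 3 of the 802 genes that carry a symbol, each with 1 of the 10209 probe sets of the array. All 3 passed the filter on low signals in every tissue.

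Ethylene is a gaseous hormone that drives ripening of tomato fruit and shapes responses to stress and wounding in leaves and roots. Its receptors sit in the membrane of the endoplasmic reticulum and work as negative regulators: without ethylene they keep the kinase CTR1 active, which holds back EIN2 and the transcription factors behind it, and binding of ethylene switches them off. In tomato, ETR1, ETR2 and ETR3 (the Never-ripe gene) form the first subfamily, with a conserved histidine kinase domain, and ETR4, ETR5 and ETR6 belong to the second, in which that domain has diverged. Never-ripe, ETR4 and ETR6 are known as the receptor genes whose transcripts climb during ripening.

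Plants of the dwarf cultivar Micro-Tom were compared in 4 genotypes: the transgenic lines N6 and N7, both expressing an InsP 5-ptase gene, whose product removes a phosphate from inositol phosphates, and the vector control (VC) and wild type (WT). Ripe fruit came from plants grown for 9 weeks in a growth chamber and gave 16 arrays, 4 per genotype. The first leaves of seedlings 10 days old, germinated in light on MS medium, gave 12 arrays, 3 per genotype. Root tips of seedlings 10 days old gave 12 arrays, 3 per genotype; the sample descriptions call these seedlings etiolated, although their growth protocol is the one given for leaves, in light. No treatment was given before harvest. The labels do not name the promoter of the introduced gene, and only 2 lines were studied, so that variation between independent transformants is not part of any p below. Titles call the fruit replicates biological. Those of leaf and root tip arrays do not, and their spread, on which the p-values rest, may be technical.

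In the controls, 6 of 6 fruit markers, 6 of 6 leaf markers and 7 of 8 root markers were highest in their own tissue. Replicate arrays had pairwise correlations of 0.930 to 0.996, and between 54.5% and 63.5% of probe sets exceeded a signal of 50. A pair of reporter probe sets raised doubts about labels in fruit. The reporter A06498 was above 50 on 16 arrays, all labelled N6 or N7, but on the 4 fruit arrays labelled N6 it lay between 4.76 and 20.3. The reporter M62653, named for a green fluorescent protein sequence, lay between 1198 and 4416 on the fruit arrays labelled WT and reached 5161 on VC replicate 4. WT replicate 3 and VC replicate 4 also correlated less with the rest of their genotype, at 0.930 to 0.950. Fruit results of ETR2, ETR4 and ETR5 are therefore given as labelled, again without these 2 arrays, and for N7 against VC replicates 1 to 3 alone. Those of other genes are given as labelled. Without the 2 arrays, every other gene named for fruit kept its sign and its side of the threshold. That does not address the doubt about the arrays labelled N6 or the remaining WT arrays. In limma for N7 against VC, as labelled, PTI5 was at -0.42 (adjusted p = 0.205), DREB1 at -0.39 (0.0585) and RIN at 0.35 (0.101). None of these passed, while the other genes named as called in fruit did, with the same sign.

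**Figure D1:**
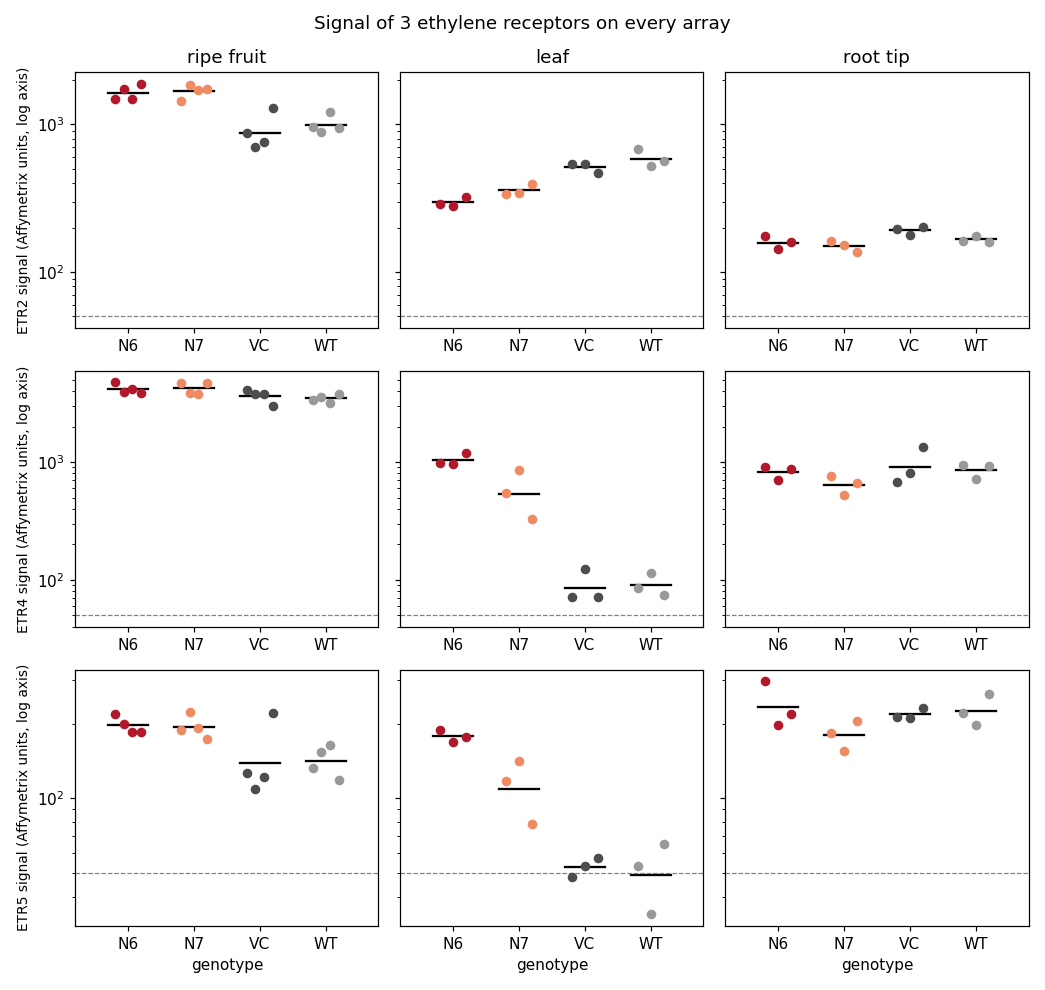
Signal of ETR2 (top), ETR4 (middle) and ETR5 (bottom) on each of the 40 arrays, in Affymetrix units on a log axis, by genotype in ripe fruit, leaf and root tip. Points are arrays, bars are geometric means of a genotype and the dashed line is the floor of 50; ETR4 and ETR5 in leaf separate the lines from the controls, ETR2 lies higher in the lines in fruit and lower in leaf, and in root tips the pooled lines and pooled controls overlap for each receptor.

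In leaves, the receptors moved in opposite directions in the lines N6 and N7: ETR4 and ETR5 rose and ETR2 fell. ETR4 was 8.51-fold higher in the lines than in the controls, ETR5 was 2.55-fold higher and ETR2 was 1.68-fold lower. In limma's moderated test, which takes both lines together against both controls on the log2 scale, all 3 receptors passed an adjusted p of 0.05 in leaf, where 18.4% of 6535 probe sets did (9.78% higher and 8.58% lower). Signals under 50 were raised to that floor before log2 was taken, and p-values were adjusted by the Benjamini-Hochberg method over all probe sets tested in the tissue.

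The ETR4 signal in leaf was 982, 954 and 1200.1 on the N6 arrays and 549, 852 and 328 on the N7 arrays, against 71.0, 124 and 71.6 on the VC arrays and 85.0, 115 and 73.8 on the WT arrays. Every line array lay above every control array. The lowest of the line arrays, N7 replicate 3, was still well clear of the highest control, VC replicate 2. The difference was 3.09 ± 0.24 (log2, SE, 6 against 6 arrays, adjusted p = 2.09e-05 in limma), the third highest of the 6535 probe sets tested. Each line passed against each control, N6 by 3.60 against VC and 3.53 against WT, and N7 by 2.64 against VC and 2.58 against WT. The share of probe sets that passed was 10.6% for N6 against VC, 15.3% for N6 against WT, 7.07% for N7 against VC and 6.15% for N7 against WT.

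ETR5 gave 189, 169 and 177 on the leaf arrays of N6 and 117, 141 and 78.5 on those of N7, against 47.8, 53.3 and 57.2 in VC and 53.3, 33.9 and 65.0 in WT. Here too every line array lay above every control array. Control arrays VC 1 and WT 2 were under the floor, so the fold is a lower bound, at least 2.55-fold (log2 difference 1.35 ± 0.14, SE, adjusted p = 1.58e-04 in limma). With a floor of 25 the difference was 1.46, with median scaling 1.25 and with quantile normalization 1.23. ETR5 passed in N6 against VC (1.73) and WT (1.67) and in N7 against VC (1.03) and WT (0.97). The N7 values were the less firm of these: with a floor of 100, above most of the leaf signals, N7 stood 0.24 above either control and passed against neither (adjusted p = 0.267 against VC and 0.269 against WT). Without a filter on low signals N7 also missed the threshold against WT (adjusted p = 0.0513). The call against VC was lost without VC 1, VC 2 or N7 2, and that against WT without WT 1, WT 2, N7 1 or N7 2 (adjusted p of 0.0536 to 0.0947).

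ETR2 signals in leaf were 289, 282 and 322 in N6 and 337, 344 and 392 in N7, against 541, 541 and 471 in VC and 681, 518 and 560 in WT. The lines lay below the controls without overlap. The difference was -0.75 ± 0.11 (log2, SE, 6 against 6 arrays, adjusted p = 9.57e-04 in limma). Singly, ETR2 passed in N6 against VC (-0.80) and WT (-0.97) and in N7 against WT (-0.71), while N7 against VC was at -0.53 with an adjusted p of 0.0599. The call of N7 against WT was lost without WT 1, WT 3, N7 1 or N7 2 (adjusted p of 0.0753 to 0.0970), and with the replicate number as a block (adjusted p = 0.0538). N7 against VC was called without N7 3 (adjusted p = 0.0336) or WT 2 (adjusted p = 0.0465), without a variance trend (adjusted p = 0.0458) and in the fit of all 40 arrays (adjusted p = 0.0351). Groups that do not overlap in leaf were thus seen for all 3 receptors; across all probe sets tested there, the lines lay wholly above the controls for 3.86% and wholly below them for 3.21%.

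A measure of RNA quality differed between lines and controls in leaf by its unadjusted p alone. Its part in these results was tested only as a covariate. The mean log2 ratio of 3' to 5' probe sets over 4 control transcripts was 4.44 ± 0.31 in the lines and 4.82 ± 0.27 in the controls (SD, n = 6 each, exact two-sided permutation p = 0.0498, 0.149 adjusted over the 3 tissues). With that ratio in the fit, ETR4 was at 3.34, ETR5 at 1.40 and ETR2 at -0.64 (adjusted p = 0.0145), all past the threshold for the lines together. The pairwise ETR2 values of N6 against VC and WT and of N7 against WT then missed it, with adjusted p of 0.0544, 0.0714 and 0.0612.

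Within leaf, the lines were ordered alike for the 3 receptors. All N6 arrays lay above all N7 arrays for ETR4 and for ETR5, and below them for ETR2, so that N6 stood farther from the controls each time. Such separation was common: of all probe sets tested in leaf, N7 lay wholly above N6 for 13.9% and wholly below it for 17.9%. The difference N7 minus N6 was -0.96 ± 0.33 for ETR4 (unadjusted p = 0.0142, adjusted p = 0.118), -0.70 ± 0.20 for ETR5 (unadjusted p = 0.00474, adjusted p = 0.0712) and 0.27 ± 0.15 for ETR2 (adjusted p = 0.295). By limma none of the 3 passed, where 4.48% of probe sets did, and ETR4 and ETR5 had an unadjusted p under 0.05. When all 40 arrays shared 1 estimate of the spread, the ETR4 and ETR5 differences passed (adjusted p = 0.00973 and 0.0279). The reporter A06498 ran the other way, at 437 ± 191 in leaf N7 and 139 ± 41.9 in leaf N6 (SD, n = 3 each). Among the N7 leaf arrays, replicate 2 was highest and replicate 3 lowest for both ETR4 and ETR5.

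**Figure D2:**
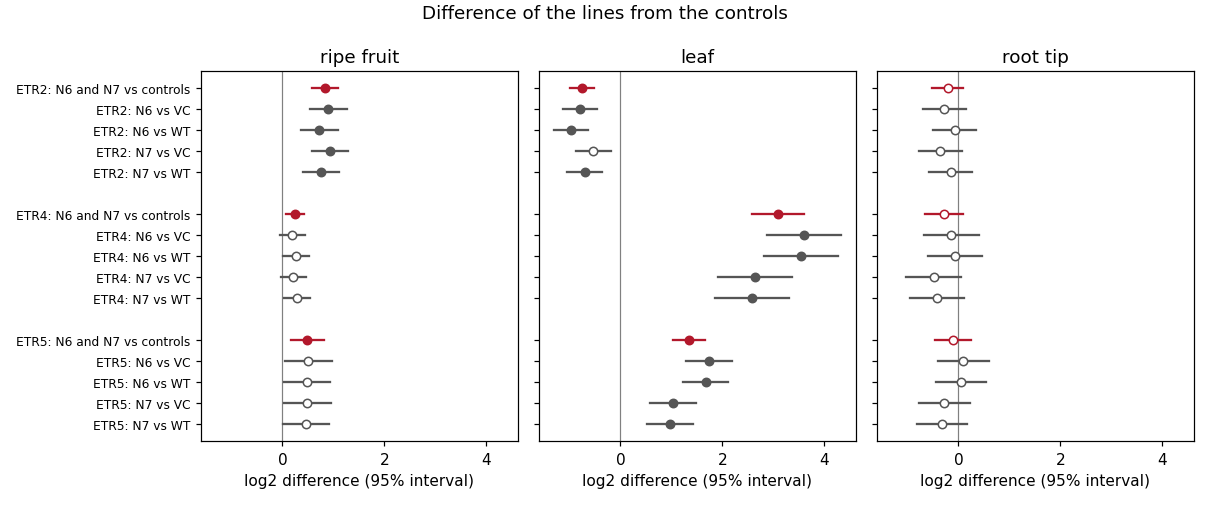
Log2 difference of the lines from the controls with its 95% interval for each receptor and contrast in ripe fruit, leaf and root tip, from the limma fit of that tissue. Red points are both lines against both controls and grey points are single pairs; filled points passed an adjusted p of 0.05, which all pairs did for ETR4 and ETR5 in leaf and for ETR2 in fruit, and none did in root tips.

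In ripe fruit, ETR2 was 1.77-fold higher on the arrays labelled N6 or N7 than on those labelled VC or WT. ETR5 was 1.40-fold and ETR4 1.18-fold higher, and the calls of these receptors depended on the setting or on single arrays. As labelled, all 3 passed in limma, where 31.1% of 6208 probe sets did (16.6% higher and 14.5% lower).

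ETR2 signals in fruit were 1474, 1738, 1486 and 1888 in N6 and 1448, 1848, 1698 and 1744 in N7, against 873, 697, 761 and 1283 in VC and 953, 888, 1213 and 947 in WT. All 8 line arrays lay above all 8 control arrays, the nearest controls being VC 4 and WT 3. Across all probe sets tested in fruit, the lines lay wholly above the controls for 3.09% and wholly below them for 4.56%. The difference was 0.83 ± 0.12 (log2, SE, adjusted p = 7.93e-05 in limma), and without WT 3 and VC 4 it was 0.97 ± 0.08. ETR2 passed for each pair: 0.90 for N6 and 0.93 for N7 against VC, and 0.72 for N6 and 0.76 for N7 against WT. These contrasts called 17.5%, 22.1%, 16.2% and 17.8% of probe sets in the order N6 against VC, N7 against VC, N6 against WT and N7 against WT. For N7 against VC replicates 1 to 3 alone, ETR2 was at 1.12 ± 0.13 (adjusted p = 9.98e-05), in a fit that called 41.1% of 5952 probe sets.

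ETR5 in fruit gave 219.6, 199.8, 185 and 185 in N6 and 189, 223, 192 and 174 in N7, against 126, 109, 121 and 220.2 in VC and 133, 153, 164 and 119 in WT. VC replicate 4 alone among the controls reached into the range of the lines; the other 7 controls lay below all of them. The difference was 0.48 ± 0.15 (log2, SE, adjusted p = 0.0245 in limma), and 0.63 ± 0.12 without WT 3 and VC 4 (adjusted p = 2.73e-04). As labelled, no single pair passed, with values of 0.46 to 0.51 and adjusted p of 0.119 to 0.162. Without WT 3 and VC 4 every pair passed, in limma with adjusted p of 0.00224 to 0.0176. N6 was then at 0.73 against VC and 0.55 against WT, and N7 at 0.71 and 0.53. For lines against controls that fit called 3294 of 6081 probe sets. N7 against VC replicates 1 to 3 alone stood at 0.71 ± 0.19 (adjusted p = 0.0143). The call was lost with the 3' to 5' ratio as a covariate (0.33, adjusted p = 0.0525); that ratio was 3.42 ± 0.42 in the lines and 3.89 ± 0.75 in the controls in fruit (SD, n = 8 each, permutation p = 0.14, exact and two-sided). It was also lost without WT 4, without VC 2 or without N7 2, with adjusted p between 0.0506 and 0.0528.

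The ETR4 signal in fruit was 4744, 3937, 4177 and 3841 in N6 and 4664, 3845, 3754 and 4692 in N7, against 4126, 3767, 3773 and 2991 in VC and 3382, 3567, 3161 and 3784 in WT. The groups overlapped, although all 8 line arrays lay above the mean of the controls. The difference was 0.24 ± 0.08 (log2, SE, adjusted p = 0.038 in limma), and no single pair passed. Without WT 3 and VC 4 it was 0.17 ± 0.08 with an adjusted p of 0.0708, and N7 against VC replicates 1 to 3 alone gave 0.12 ± 0.12 (adjusted p = 0.444). The call was also lost when WT 1, WT 2, WT 3, VC 4, N6 1, N6 3, N7 1 or N7 4 was left out alone (adjusted p of 0.0533 to 0.0816). VC 4 and WT 3, which were the highest controls for ETR2 and ETR5, were the lowest controls for ETR4. No receptor passed between the lines in fruit, where N7 minus N6 lay between -0.02 and 0.04 for the 3 receptors (2.9% of all probe sets passed), with 95% intervals from -0.48 to 0.44 at their widest, for ETR5.

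In root tips no receptor passed. The difference of the lines from the controls was -0.21 ± 0.14 for ETR2 (adjusted p = 0.526), -0.28 ± 0.17 for ETR4 (adjusted p = 0.513) and -0.11 ± 0.16 for ETR5 (adjusted p = 0.799), all from limma. Here 0.508% of 6495 probe sets passed, and the smallest unadjusted p among the 3 receptors was 0.133, for ETR4. The 95% interval ran from -0.51 to 0.08 for ETR2, from -0.65 to 0.10 for ETR4 and from -0.47 to 0.24 for ETR5.

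ETR2 signals in root tips were 174, 142 and 159 in N6 and 162, 151 and 137 in N7, against 196, 179 and 201 in VC and 162, 177 and 160.4 in WT. ETR4 signals were 908, 706 and 867 in N6 and 761, 530.3 and 663 in N7, against 678, 806 and 1352 in VC and 946, 725 and 932 in WT. ETR5 signals were 297, 197 and 218 in N6 and 183, 155 and 206 in N7, against 213, 211 and 232 in VC and 220.0, 198 and 263 in WT. Lines and controls overlapped for each receptor, as they did for all but 0.924% (lines above) and 0.985% (lines below) of probe sets, with the highest ETR4 value on a control array, VC 3, and the highest ETR5 value on a line array, N6 1. Singly, no receptor passed for N7 against VC, where 0.154% of probe sets did, or for N7 against WT, where 0.308% did, and limma called no probe set for N6 against VC (563 at an unadjusted p under 0.05) or N6 against WT (756). No receptor passed between N7 and N6 in root tips, where 0.0462% of probe sets did, with the smallest unadjusted p at 0.126, for ETR5. Between VC and WT no receptor passed in any tissue; the smallest unadjusted p was 0.286, for ETR2 in leaf, and over all probe sets limma called 0 of 6208 in fruit (331 at an unadjusted p under 0.05), 1 of 6535 in leaf (0.0153%) and 0 of 6495 in root tips (60 at an unadjusted p under 0.05).

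The difference in response between tissues was tested itself, in 1 fit of all 40 arrays with a mean for each genotype in each tissue. Between leaf and fruit all 3 receptors passed, where 27.4% of 5597 probe sets did. ETR2 responded in opposite directions, and its leaf effect was lower than its fruit effect by a log2 difference of -1.58 ± 0.16 (adjusted p = 2.86e-09). The leaf effect exceeded the fruit effect by 2.85 ± 0.23 for ETR4 (adjusted p = 1.95e-11) and by 0.87 ± 0.21 for ETR5 (adjusted p = 0.00151). The ETR5 value was 0.05 with a floor of 100 (adjusted p = 0.863) and 0.32 with N7 and VC alone and fruit VC 4 left out (adjusted p = 0.390), and was called in neither.

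Root tips were set against fruit and leaf in the same way. The root tip effect was lower than the fruit effect by -1.04 ± 0.16 for ETR2 (adjusted p = 1.98e-05) and by -0.60 ± 0.21 for ETR5 (adjusted p = 0.0358), and stood at -0.52 ± 0.23 for ETR4 (adjusted p = 0.110), which did not pass; 20.8% of 5535 probe sets passed. Against leaf, the root tip effect was lower by -3.37 ± 0.25 for ETR4 (adjusted p = 1.62e-11) and by -1.47 ± 0.22 for ETR5 (adjusted p = 2.04e-05), and higher by 0.54 ± 0.17 for ETR2 (adjusted p = 0.0376); 11.5% of 5741 probe sets passed. The last was 0.17 with N7 and VC alone (adjusted p = 0.756). Of 48 other fits, the ETR2 difference between root tips and leaf lost its call in 15 and the ETR5 difference between root tips and fruit in 16, most of them with 1 array left out. Without fruit WT 3 and VC 4, the 8 differences that passed still did, among them ETR2 between leaf and fruit at -1.72 and ETR5 between root tips and fruit at -0.75 (adjusted p = 0.00169).

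**Figure D3:**
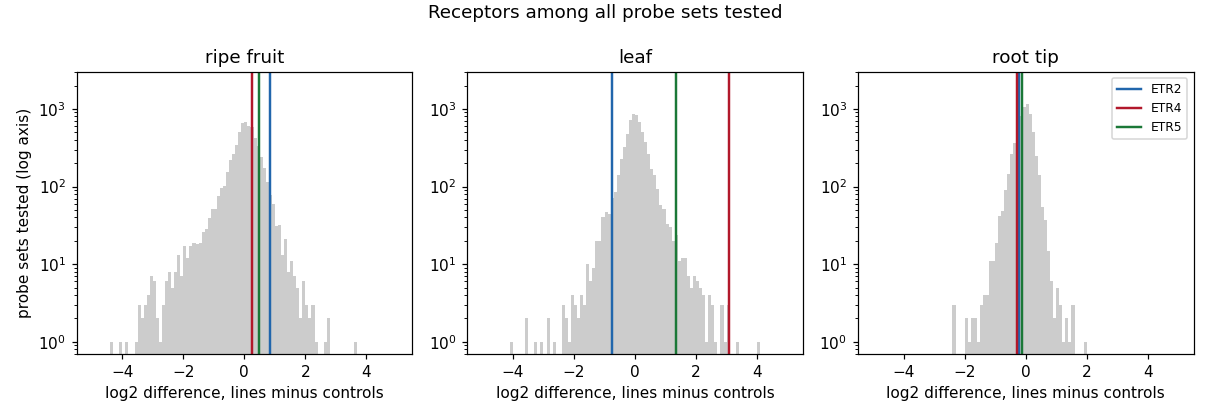
Number of probe sets tested by log2 difference of the lines from the controls, in bins of 0.1, on a log count axis, in ripe fruit, leaf and root tip. Coloured lines mark ETR2, ETR4 and ETR5; in leaf ETR4 lies at 3.09 near the upper end and ETR2 at -0.75 on the lower side, while in root tips all 3 lie close to 0.

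In the control plants, each receptor had its own order of tissues. All 3 receptors passed in every comparison of tissues, where 67.2% of 7602 probe sets passed between leaf and fruit, 67.5% between root tip and fruit and 70.6% between root tip and leaf. These comparisons rest on the deposited scaling, which gives each array the same trimmed mean whatever its tissue. In bulk tissue a smaller share of cells expressing a gene and less transcript per cell cannot be told apart.

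ETR2 averaged 179 ± 17 in root tips (SD, n = 6), 552 ± 70.2 in leaf (n = 6) and 952 ± 203 in fruit (n = 8). Fruit was thus the highest and root tips the lowest, with leaf minus fruit at -0.77 ± 0.11, root tip minus fruit at -2.39 ± 0.11 and root tip minus leaf at -1.62 ± 0.12 (log2, SE). ETR4, with controls at 906 ± 243 in root tips, 90.1 ± 23.5 in leaf and 3569 ± 373 in fruit, was highest in fruit and lowest in leaf. Its leaf level was 40.5-fold under that of fruit (-5.34 ± 0.16) and its root tip level 4.03-fold under it (-2.01 ± 0.16), while root tips exceeded leaf by 3.33 ± 0.18. In leaf of line N6, ETR4 averaged 1045 ± 135 (SD, n = 3), a level within the spread of the control root tips and below every fruit array.

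ETR5 averaged 223 ± 22.5 in root tips of the controls, 51.8 ± 10.4 in leaf and 143 ± 36.1 in fruit (SD, n = 6, 6 and 8). Root tips were the highest and leaf the lowest, with root tip minus fruit at 0.67 ± 0.14, leaf minus fruit at -1.36 ± 0.14 and root tip minus leaf at 2.02 ± 0.15 (log2, SE). Both differences from leaf depend on the floor, which 2 of 6 leaf controls were under: with a floor of 100 they were -0.48 and 1.15, and with a floor of 25 they were -1.46 and 2.13. Root tip minus fruit was 0.33 with median scaling (adjusted p = 0.0392) and 0.39 with quantile normalization. All 9 values were called, with adjusted p of 1.09e-04 at the highest in limma, and kept their sign and their call with every other floor, scaling, filter and array set tried. Signals of different probe sets were not set against each other, since each probe set has its own response.

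The other receptors on the array were ETR1, ETR3 and ETR6. In fruit, ETR1 (0.72 ± 0.12, adjusted p = 3.25e-04) and ETR6 (0.70 ± 0.13, adjusted p = 8.81e-04) were higher in the lines, and ETR3, listed as LOC544279, was at -0.06 ± 0.08 (adjusted p = 0.636). ETR1 signals there averaged 697 ± 109 in the lines and 426 ± 77.0 in the controls, and those of ETR6 485 ± 79.8 in the lines and 299 ± 55.5 in the controls (SD, n = 8 each). Lines and controls overlapped for both. Singly, in limma, ETR1 missed the threshold for N6 against WT (0.52, adjusted p = 0.0510). ETR6 missed it for N7 against WT (0.48, adjusted p = 0.0923), and their other pairs of a line and a control passed. In leaf, ETR3 (LOC544279) was higher by 0.91 ± 0.11 (adjusted p = 3.78e-04), at 574 ± 59.4 in the lines and 306 ± 30.1 in the controls (SD, n = 6 each) with no overlap, and ETR1 was at 0.09 ± 0.11 (adjusted p = 0.617). ETR6 was not tested in leaf, where only 2 arrays, both of N6, exceeded 50. In root tips none of the 3 passed, and ETR3 (LOC544279) had the smallest p (-0.33 ± 0.10, unadjusted p = 0.00775, adjusted p = 0.194). In 1 other setting ETR3 was called there (adjusted p = 0.0310 in limma). ETR6 in root tips was under the floor on all 6 line arrays and on 3 of 6 control arrays. Of the 6 receptors, 5 were called higher in fruit as labelled, beside 16.6% of all probe sets, with ETR4 losing that call in 13 of its 27 other fits. In leaf 3 of 5 tested were called higher, beside 9.78% of all probe sets, and ETR2 lower, beside 8.58%.

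Downstream of the receptors, genes of the signal relay on the array comprise CTR1 and 3 relatives, EIN2 and 4 factors of the EIL family, which switch on ethylene target genes. In fruit 2 of 9 rose and 1 fell, against 16.6% and 14.5% of all probe sets. EIL1 (0.48 ± 0.07) and EIL4 (0.50 ± 0.08) rose. EIN2 fell by an estimated 9.78-fold, held down by the floor, which 2 line arrays were under. EIL4 passed in N7 (0.87 against VC and 0.81 against WT) and not in N6 (0.18 and 0.12), and N7 minus N6 passed for it at 0.69. In leaf 3 of 9 rose and 1 fell, against 9.78% and 8.58% of all probe sets: EIL3 (0.98 ± 0.15), CTR1 (0.87 ± 0.14) and EIL1 were higher, and EIN2 was lower (-1.45 ± 0.14). In root tips EIN2 alone of 9 passed, beside 0.508% of all probe sets, at -1.72 ± 0.19 (adjusted p = 0.0025). Both EIN2 values averaged over unlike lines: in leaf and root tips the fall was in N7, and N6 lay near the controls. EIN2 signals in leaf were 772, 573 and 624 in N6 and 84.3, 111 and 78.9 in N7, against 542 to 759.5 in the controls. In root tips they were 1081, 610.1 and 848 in N6 and 113, 77.9 and 54.3 in N7, against 761 to 1064 in the controls. N7 minus N6 for EIN2 was -2.85 ± 0.20 in leaf (adjusted p = 1.12e-05) and -3.40 ± 0.27 in root tips (adjusted p = 1.58e-04), whereas in fruit EIN2 lay between 32.7 and 68.2 on the arrays labelled N6 and between 46.6 and 70.6 on those labelled N7. The fruit arrays labelled N6 thus differed from N6 leaf and root tip arrays in EIN2 as well as in the reporter A06498. The median difference of the 9 genes was 0.18 in fruit, 0.25 in leaf and -0.22 in root tips, beside 0.04, 0.01 and -0.02 over all probe sets tested. The CTR1 probe set carries the suffix _s_at, which marks probes shared with other transcripts, and with a floor of 100 its leaf value was 0.19 (adjusted p = 0.177).

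Ethylene synthesis, through the ACC synthases (ACS), the ACC oxidases (ACO) and the enzymes that make S-adenosylmethionine (SAM), had 3 of 9 tested genes lower in fruit and none higher, beside 14.5% and 16.6% of all probe sets. ACO6 was at -2.08 ± 0.14 and ACO4 at -1.65 ± 0.15. In leaf ACS6 alone of 7 was higher (1.11 ± 0.22, adjusted p = 0.00559), beside 9.78% of all probe sets. Singly, ACS6 passed in both lines against VC (1.19 for N6 and 1.35 for N7). Against WT it passed in neither (0.88, adjusted p = 0.0788, for N6 and 1.04, adjusted p = 0.0733, for N7, in limma). In root tips 0 of 10 passed, beside 0.508% of all probe sets. No member besides ACO4 was under an adjusted p of 0.1 there (-0.87 ± 0.18, adjusted p = 0.0599). The list's median was -0.33 in fruit, 0.41 in leaf and -0.25 in root tips.

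Ethylene response factors (ERF) and their relatives that were tested in leaf were mostly higher. There 10 of 12 tested were higher and 1 lower, beside 9.78% and 8.58% of all probe sets, and their median was 1.15. The array holds 15 of these genes, and only those that passed the filter on low signals count here. A gene under the floor in every leaf control, as ERF3 was, is tested only when the lines lift it above 50. The count and median are thus not independent of the filter. ERF1a, listed as LOC606712, was higher by 2.94 ± 0.33 and ERF3 by 2.51 ± 0.34, both held down by the floor, which control arrays lay under. DREB1 was lower (-0.89 ± 0.20). ERF3 passed in N6 (3.70 against either control) and not in N7 (1.32), and N7 minus N6 passed for it at -2.38. The DREB1 call was lost with a floor of 100 (-0.13, adjusted p = 0.293) and with the 3' to 5' ratio as a covariate (-0.75, adjusted p = 0.0894). Singly, DREB1 in leaf passed in N6 (-1.04 against VC and -1.10 against WT) and not in N7 (-0.68 and -0.73), and N7 minus N6 did not pass (0.36). In fruit 3 of 14 were higher and 3 lower, beside 16.6% and 14.5% of all probe sets, with a median of -0.17. DREB2 (0.94 ± 0.16) and PTI5 (0.47 ± 0.16) rose, and DREB1 (-0.59 ± 0.10) and CBF1 (-2.67 ± 0.57) fell. DREB2 passed in N7 (1.35 against VC and 1.40 against WT) and not in N6 (0.47 and 0.52), with N7 minus N6 at 0.88 (adjusted p = 0.0483 in limma). CBF1 lost its call without a floor (-2.45, adjusted p = 0.0791), and PTI5 was higher in N6 and not in N7, with N7 minus N6 at -1.38. In root tips 0 of 12 passed in limma, beside 0.508% of all probe sets, with a median of -0.30.

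Ethylene-responsive and ripening genes were called higher for 2 and lower for 4 of 17 in fruit, beside 16.6% and 14.5% of all probe sets, with a median of 0.09. TDR4 (0.68 ± 0.14) and RIN (0.30 ± 0.10), both MADS-box factors of ripening, rose, and ER24 (-2.05 ± 0.24) and PG2, the polygalacturonase that softens fruit (-1.46 ± 0.18), fell. Singly, in limma, RIN passed for neither line against either control (0.19 to 0.41, adjusted p of 0.0699 to 0.418). TDR4 passed for all such pairs but N6 against VC (0.57, adjusted p = 0.0539). The TDR4 probe set, like that of CTR1, carries the suffix _s_at. In leaf 3 of 9 were higher, beside 9.78% of all probe sets, among them ER66 (0.75 ± 0.11) and CTR1, which is listed here too under the name ER50, and the median was 0.70. In root tips 0 of 10 passed, beside 0.508% of all probe sets, with a median of -0.25. The fruit calls of PTI5 and RIN were lost in 6 and 3 of the other settings and in 11 and 12 of the fits with 1 array left out, whereas those of EIN2, ACO4, ACO6, ER24 and PG2 held throughout.

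**Figure D4:**
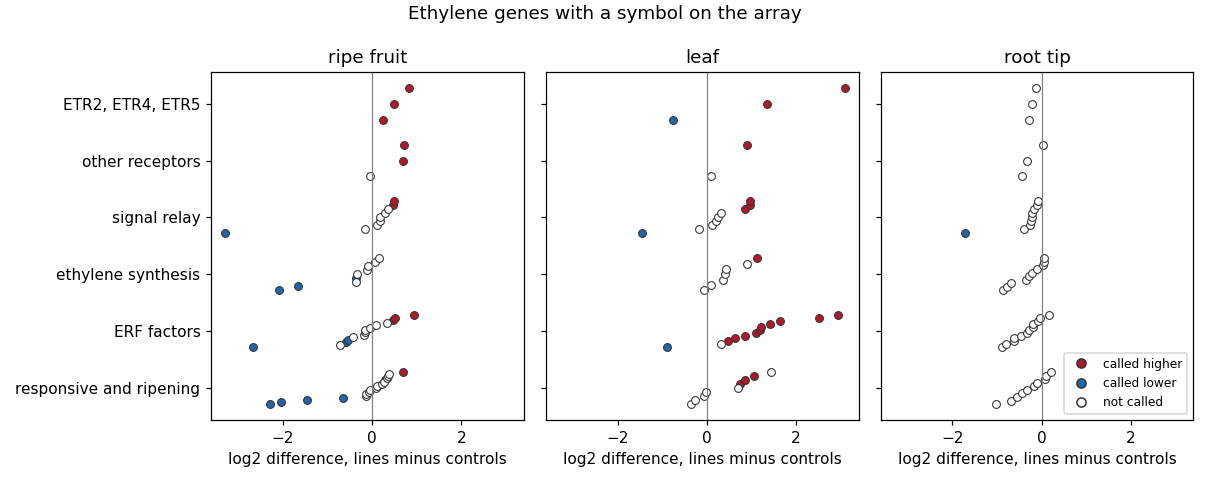
Log2 difference of the lines from the controls for the receptors and the other ethylene genes with a symbol, 1 point per tested gene and 1 row per list, in ripe fruit, leaf and root tip. Filled points passed an adjusted p of 0.05, red higher and blue lower; leaf has 10 of 12 ERF factors higher, fruit has both directions in 3 lists, and in root tips EIN2 alone is called.

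Across the 12 means of a genotype in a tissue, the receptors differed in pattern. ETR4 ran most closely with ETR3 (LOC544279; Pearson r = 0.914 over the 12 means of log2 signals) and ETR2 with ETR6 (r = 0.841), while ETR4 and ETR5 gave r = 0.721 and ETR2 and ETR5 r = -0.24. ETR6 lay at the floor in most of its leaf and root tip means, so its coefficient mainly sets fruit against floored values. Among 496 other genes with a symbol that were measured in all tissues, those most like ETR2 were SPS (r = 0.971), LOC544234 (r = 0.968) and cdc2A-2 (r = 0.962). The most like ETR4 were LOC543870 (r = 0.978), LOC544070 (r = 0.963) and CTR1 (r = 0.953), and the most like ETR5 were NP24-I (r = 0.904), COI1 (r = 0.903) and DREB3 (r = 0.903). The 4 means of a tissue share that tissue, so these coefficients mainly reflect levels between tissues, and they are given as descriptions.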

How the data were processed

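Signals of 40 Affymetrix tomato arrays, 1 sample each, were analysed. The authors deposited 1 signal per probe set and array, a linear intensity made with GCOS per the submitters' processing notes, without a version. Every array had a trimmed mean of about 500.1 after the highest and lowest 2% were left out, so a global scaling was already present and was kept. It equalises the arrays, and a shift of many bright transcripts would move all others slightly. The number of arrays limits the precision.

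Signals under 50 were set to 50 and log2 was taken, so folds of dim probe sets depend on that floor. A probe set was tested when above 50 on at least 4 fruit, 3 leaf or 3 root tip arrays. Control probe sets (108 of housekeeping and hybridisation kind and 63 reporters) were left out. The test was limma's (version 3.58.1, R 4.3.3; lmFit, eBayes with a variance trend, two-sided), in 1 fit per tissue with a mean per genotype and no covariate, and in 1 fit of all arrays for differences between tissues. Adjusted p-values are Benjamini-Hochberg over all probe sets tested, with a threshold of 0.05. The fits were tested on simulated data. Groups and replicate numbers came from the titles.

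Symbols came from the platform annotation, which gave 1 to 909 probe sets, of which 885 were matched by gene identifier to the gene table of assembly SLM_r2.1, used for names only; 802 genes were covered. That table also lists ETR1 as a synonym of the gene of ETR2. Of a gene with several probe sets the brightest was used. The text names, per list and tissue, the 2 called genes with the smallest p in each direction, and all receptors; EIL1 in leaf and ACO4 in root tips were named, and EIN2 given by array, after their values were seen. The receptors and lists were chosen with earlier results of these data known. No sequence of the receptors is printed. Alternatives were other floors, scalings, filters, variance models and covariates, single arrays left out, and fruit without doubted arrays.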

Additional observations from a re-analysis of the deposited data

Results flagged for a closer look

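The response of the receptors to the lines differed between tissues by the test of the difference itself, in the fit of all 40 arrays. For ETR2 the log2 effect in leaf minus that in fruit was -1.58, the root tip effect minus the fruit effect was -1.04 and the root tip effect minus the leaf effect was 0.54. For ETR4 the leaf effect minus the fruit effect was 2.85 and the root tip effect minus the leaf effect was -3.37. For ETR5 the leaf effect minus the fruit effect was 0.87, the root tip effect minus the fruit effect was -0.60 and the root tip effect minus the leaf effect was -1.47. The ETR2 and ETR4 values between leaf and fruit, the ETR2 value between root tips and fruit and the ETR4 and ETR5 values between root tips and leaf were called in every setting tried, whereas the other 3 lost their call in at least 1. Fruit, leaf and root tips also differ in plant age and culture, which cannot be told apart from tissue. Within the 4 fruit arrays of a genotype, 1 array stood far from the other 3 in Dixon's test for 3 of 32 groups of arrays. Chance gives about 1 in 20 on 1 scale. A group counted when past on either the linear or the log2 scale, which raises that share, and the groups share the same arrays. ETR5 reached a signal of 220.2 on VC replicate 4, past the critical value on the linear scale and not on the log2 scale. ETR1 was at 496.6 on N6 replicate 3, below the other N6 fruit arrays, and the reporter M62653 was at 5161 on VC replicate 4.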

How the results depend on the processing

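The call of ETR2 in fruit (0.69 to 0.97) and those of ETR2 (-0.85 to -0.64), ETR4 (2.81 to 3.34) and ETR5 (0.54 with a floor of 100, to 1.47) in leaf, lines against controls, held in every fit run. Over 3094 values from other fits, 2918 kept direction and side of the threshold, 104 lost the call, 23 gained it and 49 changed sign; the cause was not tested. ETR4 in fruit lost its call with median scaling (0.30, adjusted p = 0.228), no filter (0.24, 0.0566), no variance trend (0.24, 0.0661), without WT 3 and VC 4 (0.17, 0.0708) and in the joint fit (0.24, 0.229), and lay between 0.19 and 0.27 with 1 array left out. ETR5 in fruit was 0.33 with the 3' to 5' ratio as a covariate and 0.43 to 0.60 with 1 array left out. ETR5 leaf minus fruit was 0.053 with a floor of 100 and 0.32 with N7 and VC alone. ETR5 root tip minus fruit was -0.60 with a floor of 25, -0.55 with median scaling, -0.49 with quantile normalization and -0.71 to -0.54 with 1 array left out. ETR2 root tip minus leaf was 0.17 with N7 and VC alone and 0.48 to 0.58 with 1 array left out. With the replicate number as a block, the last 2 were -0.60 (adjusted p = 0.0596) and 0.54 (0.0516), and ETR2 in leaf N7 minus WT also lost its call (-0.71, 0.0538), with no other call changed. Same-numbered arrays correlated above 0.1 in 10 of 24 fruit, 5 of 18 leaf and 10 of 18 root tip pairs. Their median correlation was 0.064, -0.0094 and 0.23, and the own number was the best match in 6, 4 and 9 of these pairs. The main fits did not take the numbers as pairs, and whether same-numbered root tip arrays share a batch was not tested.

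Probe sets called were 3294 in fruit without WT 3 and VC 4 (1928 with them), 593 in leaf with the covariate and 794 to 1556 with 1 array left out (1200 with all), and in root tips 5 without a filter, 151 with the covariate, 213 in the joint fit and 18 to 140 with 1 array left out (33 with all). With median scaling, higher calls made up 66.0% in fruit (53.4% as deposited), 39.8% in leaf (53.3%) and 14.8% in root tips (21.2%), and the median difference of all fruit probe sets was 0.10.

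Uncalled values changed sign as follows. With median scaling, lines against controls were 0.0058 for ETR3 (LOC544279) in fruit and -0.0040 for ETR1 in leaf; N7 minus N6 in fruit was -0.079 for ETR2 and -0.096 for ETR4; N6 minus WT in root tips was 0.13 for ETR2 and 0.14 for ETR4; VC minus WT for ETR5 was 0.15 in fruit and 0.035 in root tips. With quantile normalization, VC minus WT for ETR5 was 0.16 in fruit and 0.034 in root tips, and N6 minus WT in root tips was 0.10 for ETR2 and 0.010 for ETR4. With the covariate, N7 minus N6 for ETR2 in fruit was -0.090 and VC minus WT was 0.11 for ETR5 in fruit and 0.047 for ETR4 in leaf. In leaf, VC minus WT was 0.10 for ETR5 with a floor of 25 and with none, and 0.034 for ETR4 with a floor of 100. With 1 array left out, N7 minus N6 in fruit ranged from -0.015 to 0.11 for ETR2, -0.032 to 0.082 for ETR4 and -0.090 to 0.030 for ETR5. VC minus WT ranged from -0.25 to 0.088 for ETR5 in fruit, -0.33 to 0.11 for ETR4 and -0.14 to 0.050 for ETR5 in leaf, and -0.22 to 0.28 for ETR4 and -0.14 to 0.065 for ETR5 in root tips. In root tips N6 minus VC ranged from -0.34 to 0.15 for ETR4 and -0.076 to 0.22 for ETR5, N6 minus WT from -0.14 to 0.0039 for ETR2, -0.19 to 0.043 for ETR4 and -0.12 to 0.18 for ETR5, and ETR1 in the lines against controls from -0.076 to 0.13. The comparisons of both doubted fruit arrays in the joint fit, N7 and VC alone, and the joint fits with a block or 1 array left out were chosen after seeing the data. Signals near the floor, as for ETR5 in leaf controls, limit the folds.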
